A study of Homo sapiens with 4 samples.

Results

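The 35 genes described here make up the protein-folding machinery of the endoplasmic reticulum and the unfolded protein response that controls it. They were taken from a list of gene symbols with no threshold on a measured value, though with earlier results of these data known, and matched to the count table by Ensembl gene identifier. All 35 were measured well enough to be tested, out of 16137 genes tested in all. RNA was sequenced from HS578T, an established human breast carcinoma cell line, in 2 groups of 2 libraries. Control cells (SCR) had received a non-targeting RNA at 1.6 µM, and the other cells (siTLN1) an siRNA against TLN1 at the same concentration. GFP was co-transfected in both groups, and the cells were collected after 48 h. TLN1 encodes talin-1, which couples integrins to actin. The data come from 1 cell line and 1 time point.

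Secreted and membrane proteins enter the endoplasmic reticulum through the SEC61 channel and fold there with the help of HSP70-type and lectin chaperones, disulfide isomerases and, for collagen, dedicated hydroxylases and chaperones. When unfolded proteins build up, the sensors IRE1 (gene ERN1), PERK (EIF2AK3) and ATF6 signal to the nucleus. ATF6 and the transcription factor XBP1 then raise transcription of chaperone and degradation genes through short promoter elements. Cells that secrete collagen and other matrix proteins depend on this machinery.

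These promoter elements are shown first because they mark which of the genes carry an exact match to letters read by ATF6 or XBP1. The window examined ran from 250 bases before to 50 bases after the RefSeq gene start (build GRCh38.p14), and 32 of the 35 genes had an entry. The motifs searched on both strands were ERSE (the letters CCAAT and CCACG with 9 bases of any kind between them), ERSE-II (ATTGG and CCACG with 1 base of any kind between them) and UPRE (TGACGTGG). ERSE matched in 6 of 32 promoters (18.8%), against 0.0806% of all 27305 promoters of the same length. ERSE-II matched in 3 (9.38%, against 0.0549%) and UPRE in 1 (3.12%, against 0.795%). In all, 9 genes held at least 1 match. The 35 were listed as genes of this response, so these shares only describe the list and test nothing. A match is a run of letters and not a measured binding site. A gene with no exact match in this window was not shown to lack such an element. The matches are given below in motif orientation, with the fixed letters in capitals and the position of the leftmost base, counted on the gene's strand from the start, in brackets.
HSPA5 ERSE (−66): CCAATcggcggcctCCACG
HSP90B1 ERSE (−194): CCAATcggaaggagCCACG
HSP90B1 ERSE (−89): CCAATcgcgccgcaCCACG
CALR ERSE (−225): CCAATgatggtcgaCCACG
CANX ERSE (−151): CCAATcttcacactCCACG
CRELD2 ERSE (−80): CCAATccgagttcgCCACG
XBP1 ERSE (−52): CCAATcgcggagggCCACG
HERPUD1 ERSE-II (−117): ATTGGgCCACG
SDF2L1 ERSE-II (−188): ATTGGtCCACG
HYOU1 ERSE-II (−185): ATTGGaCCACG
HYOU1 ERSE-II (−79): ATTGGaCCACG

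The UPRE letters of HYOU1 (−188) overlap its first ERSE-II match. The promoter of HSPA5 is given whole, since HSPA5 encodes BiP, the main HSP70 chaperone of the compartment and the usual marker of the response. It lies at chr9:125241294-125241593 (GRCh38.p14, minus strand), and capitals mark the ERSE letters.
HSPA5: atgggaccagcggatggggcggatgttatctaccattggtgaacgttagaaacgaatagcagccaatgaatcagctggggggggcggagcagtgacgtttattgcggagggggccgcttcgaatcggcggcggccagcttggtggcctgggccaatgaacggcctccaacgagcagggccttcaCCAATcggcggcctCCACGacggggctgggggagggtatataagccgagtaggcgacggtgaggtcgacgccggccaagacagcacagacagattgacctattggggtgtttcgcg

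Library totals ran from 31854322 to 46353297 counts. The target transcript TLN1 had 868 and 874 CPM (counts scaled to library size, with TMM factors between libraries) in the SCR libraries and 51.9 and 44.8 CPM in the siTLN1 libraries, which left 5.55% of the SCR mean. In bulk RNA, fewer cells with a transcript and less of it per cell cannot be told apart. The cells were labelled as epithelial in origin. Of 8 epithelial markers EPCAM, KRT19 and KRT5 had at most 6 counts in any library and were not tested, and CDH1 stood at 0.463 CPM in SCR, while KRT18 (117 CPM in SCR, 119 CPM in siTLN1) and KRT14 (118 CPM and 67.1 CPM) were present. KRT14 was lower in siTLN1 (adjusted p 9.77e-05, edgeR). All 5 mesenchymal markers were tested. VIM stood at 3860.3 CPM in SCR and 3922 CPM in siTLN1, FN1 at 24926 and 29665 CPM, CD44 at 1574 and 1316 CPM and AXL at 1481 and 1391 CPM, and none of these 4 passed. CDH2 fell from 552 to 298 CPM (adjusted p 2.45e-05, edgeR). The part of these marker changes in the results below was not tested. Of the immune and endothelial markers, CD3E had 0 counts in every library, and PECAM1, the highest, stood at 4.11 CPM in SCR and 3.08 CPM in siTLN1. Libraries of a group are named a and b after a number in their column headers that recurs in both groups, and what that number marks is not stated in the sources used here.

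Abundance differed widely among the 35 genes. On a scale corrected for exon length (TPM, computed over the tested genes), 4 genes stood above 1000 TPM in SCR. CALR, a calcium-binding lectin chaperone, was highest with a mean of 3319 TPM, followed by HSP90B1 (GRP94, the HSP90 of the compartment) at 1660.1 TPM and HSPA5 at 1474 TPM. SEC61A1, the channel subunit, stood at 1152 TPM in SCR, and its 4 libraries ran from 1116 to 1166 TPM. Not all chaperones were abundant, since the J protein DNAJB9 had 35.7 TPM in SCR. Of the stress sensors, ERN1 had 6.30 TPM, EIF2AK3 19.2 TPM and ATF6 58.4 TPM in SCR, and ERN1 and EIF2AK3 were the lowest of the 35. HSP90B1 stood above HSPA5 in each of the 4 libraries. The smallest gap was in SCR library b, with 1702 TPM for HSP90B1 and 1647 TPM for HSPA5. CALR stayed above both in each library, with a lowest value of 2483 TPM in siTLN1 library a.

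**Figure D1:**
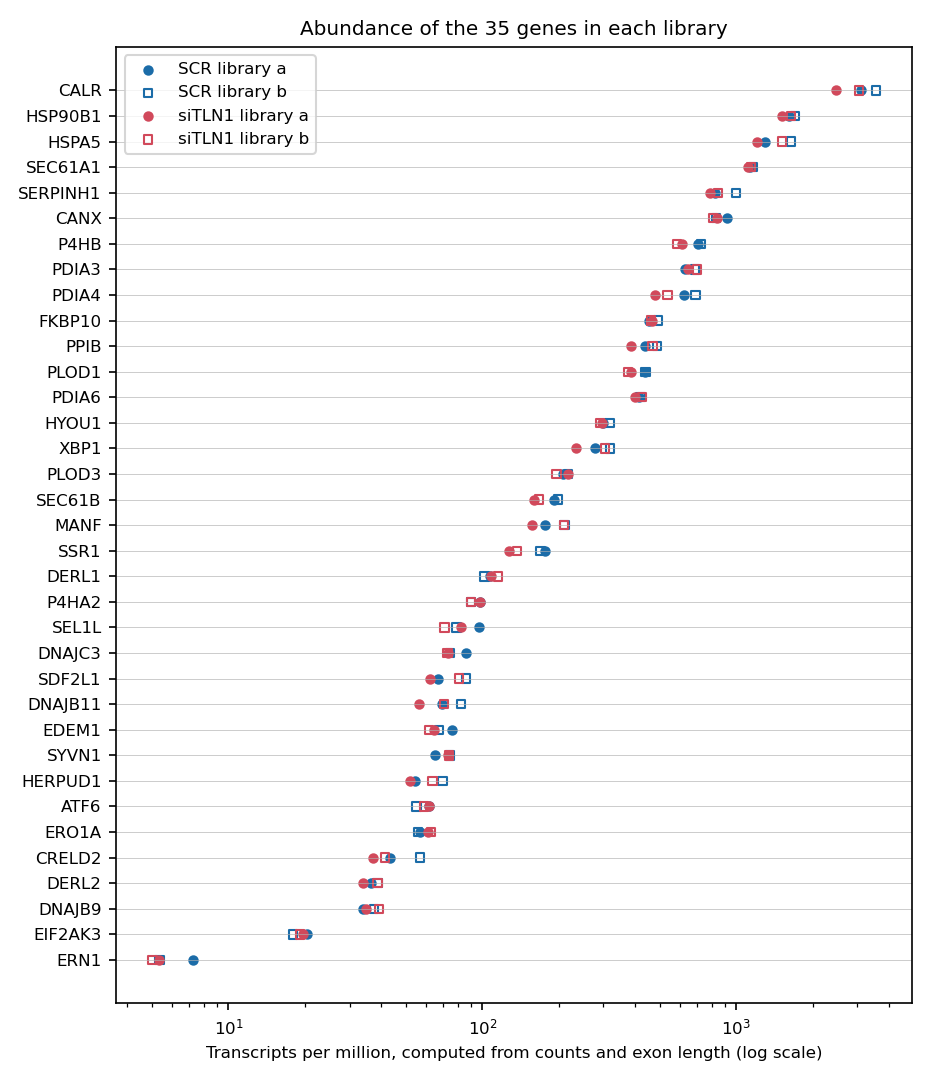
TPM of the 35 genes on a log axis, 1 point per library, with SCR in blue, siTLN1 in red, library a filled and library b open. The 4 points of a gene lie close together next to the distance between genes, from ERN1 at 6.30 TPM to CALR at 3319 TPM (SCR means).

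The first comparison asked whether any of these transcripts differed between siTLN1 and SCR. In the edgeR fit of all 4 libraries 1 did: SSR1 fell, and no other gene of the 35 passed the threshold in either direction. This is 1 of 35 genes (2.86%), against 6.07% of all genes tested at an adjusted p under 0.05 (Benjamini-Hochberg over all 16137 genes, quasi-likelihood test of edgeR). A further 4 genes, PDIA4, CRELD2, P4HB and SEC61B, had an unadjusted p under 0.05 and did not pass after adjustment. All 4 had lower means in siTLN1. With these 4 and SSR1, 5 of 35 genes had an unadjusted p under 0.05, against 19.8% of all genes. The libraries of the groups did not overlap for 10 of the 35, against 48.4% of all genes. Of these 10, 8 were lower in siTLN1 (24.6% of all genes) and 2 higher (23.9% of all genes). The median log2 fold change of the 35 was −0.057, against 0.0033 over all genes, and 23 of 35 values were below 0, against 49.4% of all genes. This median was negative with TMM, RLE and total-count scaling. Leaving out SCR library b turned it to 0.044, and leaving out siTLN1 library a to 0.0035. Either fit leaves libraries a and b uneven between the groups. With the replicate number as a block, limma-trend called 9 of the 35 and 3645 of all genes. The 9 were SSR1, PDIA4, CRELD2, P4HB, DNAJB11, CALR, SEC61B and PLOD1, lower, and ERO1A, higher. What the replicate number marks is not stated. Below, a gene is said to pass by the edgeR fit of all 4 libraries unless another fit is named.

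The intervals of the edgeR fit bounded most of the differences. Standard errors of the log2 fold changes ran from 0.091 to 0.15. They rest on a spread estimated across genes and not on the libraries of each gene alone. For 34 of the 35 genes the 95% interval of the fold change lay inside 1.5-fold in both directions (0.58 on the log2 scale), a size chosen after the values were seen. The exception was CRELD2, with a lower bound of −0.60. These intervals are not adjusted for the number of genes.

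**Figure D2:**
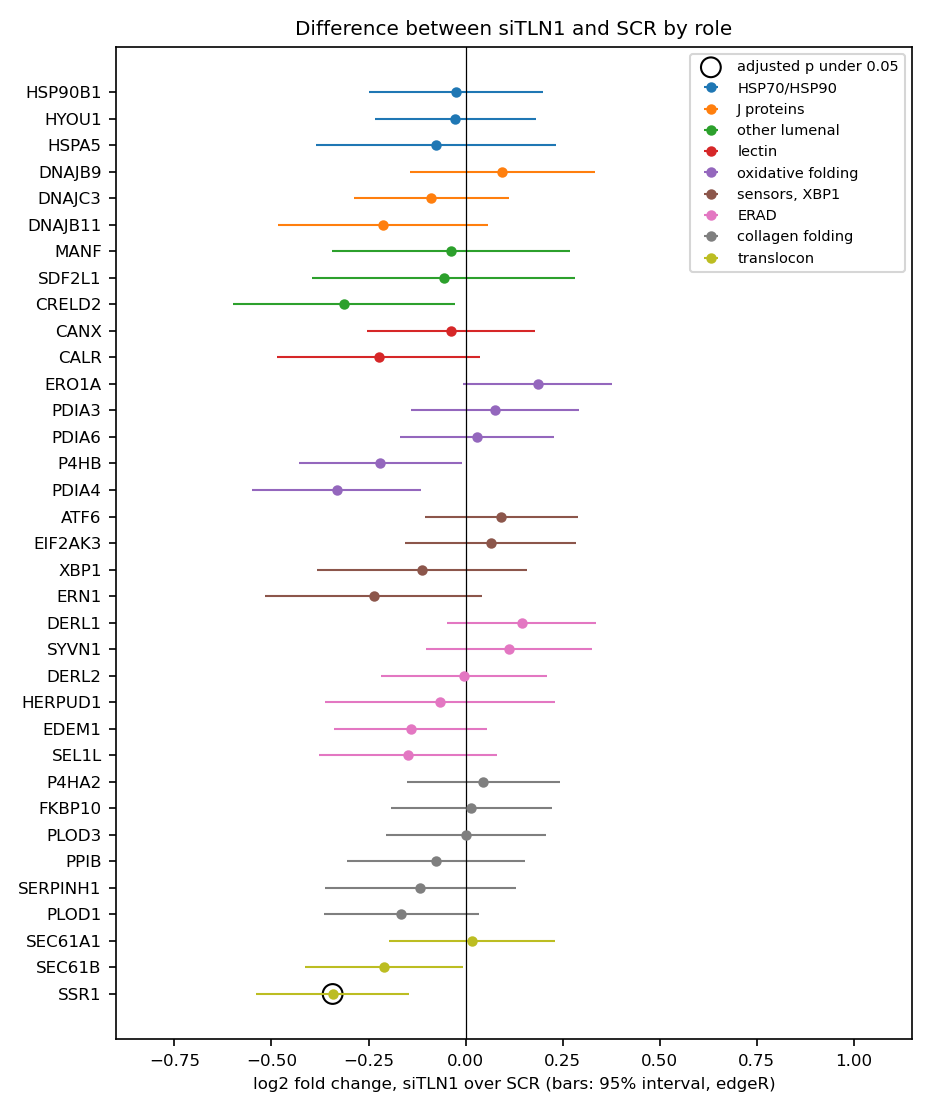
Log2 fold change of siTLN1 over SCR for the 35 genes, coloured by role, with 95% intervals from the edgeR fit. Only SSR1, ringed, had an adjusted p under 0.05, and the values run from −0.34 for SSR1 to 0.19 for ERO1A.

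SSR1 (ENSG00000124783.14; GRCh38, chromosome 6, 7268306 to 7347446, minus strand) encodes the alpha subunit of the translocon-associated protein complex, which sits beside SEC61 and helps some proteins to enter. It had 451 and 453 CPM in the SCR libraries and 347 and 366 CPM in the siTLN1 libraries. Both siTLN1 libraries lay below both SCR libraries. On the log2 scale the difference was −0.34 (standard error 0.094), a change of −21.1%, and edgeR put its adjusted p at 0.0381. The call was lost when any 1 library was left out, with adjusted p from 0.103 to 0.323 and log2 fold changes from −0.38 to −0.30, and without a filter on low counts (adjusted p 0.0700). The other 3 subunits, named after their values were seen, did not pass. Their log2 fold changes were 0.068 for SSR2, 0.10 for SSR3 and −0.14 for SSR4, and whether they differ from SSR1 was not tested. Of the channel itself, SEC61A1 had a log2 fold change of 0.017, with a 95% interval of −0.20 to 0.23. SEC61B, a small subunit of the channel, had 52.0 and 56.6 CPM in SCR and 46.2 and 47.6 CPM in siTLN1, a log2 fold change of −0.21 (adjusted p 0.237 by edgeR).

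Among the chaperones of the lumen no gene passed. HSPA5 (ENSG00000044574.8; chromosome 9, 125234853 to 125241343, minus strand), the BiP gene, had 1149 and 1520.5 CPM in SCR against 1128 and 1405 CPM in siTLN1. The groups overlapped, and in each group library b stood above library a. Its log2 fold change was −0.076 with a 95% interval of −0.38 to 0.23 (adjusted p 0.839, edgeR). HSP90B1 had 1712 and 1881 CPM in SCR and 1709 and 1820.1 CPM in siTLN1, with a log2 fold change of −0.025 and an interval of −0.25 to 0.20. HYOU1, an HSP70-like exchange factor for BiP, gave −0.027. The J proteins hand substrates to BiP. DNAJB9, which restrains IRE1, had 19.4 and 22.3 CPM in SCR against 21.1 and 23.5 CPM in siTLN1, a log2 fold change of 0.095 with overlapping groups. DNAJB11 and DNAJC3 gave −0.21 and −0.088. SDF2L1, a lumenal partner of J proteins, had 15.9 and 21.6 CPM in SCR and 15.8 and 20.2 CPM in siTLN1. Each siTLN1 library stood just under the SCR library of the same letter. MANF, a secreted protein that binds BiP, gave −0.036.

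CRELD2, a secreted protein of the response, was the least settled of these. It had 50.6 and 69.3 CPM in SCR and 46.0 and 50.5 CPM in siTLN1, so the higher siTLN1 library lay just under the lower SCR library. Its log2 fold change was −0.31 (adjusted p 0.203, edgeR). Leaving out SCR library a gave −0.52 (adjusted p 0.00149), and leaving out SCR library b gave −0.067 (adjusted p 0.873). The value depended on which SCR library was kept.

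The lectin chaperones CALR and CANX hold glycoproteins while they fold. CALR had 1889 and 2267 CPM in SCR and 1612 and 1947 CPM in siTLN1, with overlapping groups, a log2 fold change of −0.22 and an adjusted p of 0.339 by edgeR. With 1 library left out this ran from −0.36 to −0.085, being nearest 0 without SCR library b. In limma-trend with the replicate number as a block it was −0.22 and passed (adjusted p 0.00758). CANX gave −0.037, with an interval of −0.25 to 0.18.

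For the enzymes that form disulfide bonds, the largest difference was that of PDIA4, a disulfide isomerase. It had 464 and 537 CPM in SCR and 378 and 418 CPM in siTLN1. Both siTLN1 libraries lay below both SCR libraries. The difference of −0.33 (log2, standard error 0.10) had an adjusted p of 0.0684 in edgeR and did not pass. It passed with total counts only (0.0446), with DESeq2 (0.0432) and in limma-trend with the replicate number as a block (1.25e-05). Without a filter on low counts it did not pass (0.135, edgeR). The log2 fold change was −0.43 with SCR library a left out and −0.22 with SCR library b left out. P4HB, a disulfide isomerase that is also the beta subunit of collagen prolyl 4-hydroxylase, gave −0.22 (adjusted p 0.228). PDIA3 and PDIA6 gave 0.075 and 0.029. ERO1A, the oxidase that recharges the isomerases, had 96.7 and 98.9 CPM in SCR and 110.5 and 112 CPM in siTLN1. Its libraries did not overlap, but its log2 fold change of 0.19 had a 95% interval of −0.0060 to 0.38 and an adjusted p of 0.271 (edgeR).

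None of the sensors passed either. ATF6 had 109 and 102 CPM in SCR and 116 and 109 CPM in siTLN1, a log2 fold change of 0.092. EIF2AK3 (PERK) had 25.0 and 23.1 CPM in SCR and 25.7 and 24.7 CPM in siTLN1, a log2 fold change of 0.065. ERN1 (IRE1) had 17.7 and 13.7 CPM in SCR and 13.8 and 12.9 CPM in siTLN1. SCR library a stood above the other 3, and the log2 fold change of −0.24 had an interval of −0.52 to 0.042. It was −0.041 with SCR library a left out and −0.41 with SCR library b left out (adjusted p 0.934 and 0.0816, edgeR). XBP1 had 190 and 227 CPM in SCR and 169 and 217 CPM in siTLN1, a log2 fold change of −0.11 with an interval of −0.38 to 0.16. IRE1 acts on XBP1 by splicing its mRNA, and counts per gene do not tell the spliced form from the unspliced one. Activity of the sensors was not measured.

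Genes of ER-associated degradation (ERAD), which returns misfolded proteins to the cytosol, gave values from −0.15 for SEL1L to 0.14 for DERL1. HERPUD1, an adaptor of the degradation complex and a target of the response, had 62.1 and 83.1 CPM in SCR and 62.8 and 75.9 CPM in siTLN1. Its log2 fold change was −0.065 (adjusted p 0.857, edgeR), and both siTLN1 values lay inside the SCR range. SYVN1, the ubiquitin ligase HRD1, had 80.8 and 96.8 CPM in SCR and 96.3 and 95.8 CPM in siTLN1, a log2 fold change of 0.11. DERL1, a component of the exit channel, had 167 CPM in both SCR libraries and 180 and 189 CPM in siTLN1. Its groups did not overlap, and its adjusted p was 0.413 in edgeR. SEL1L, which pairs with SYVN1, EDEM1, which trims glycans, and DERL2 gave −0.15, −0.14 and −0.0052.

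The collagen-folding members did not pass. SERPINH1 (HSP47, the collagen chaperone) gave −0.12 and PPIB, a prolyl isomerase, −0.076. FKBP10, another prolyl isomerase, gave 0.015, and PLOD1 and PLOD3, which hydroxylate lysine, gave −0.17 and 0.0014. P4HA2, a catalytic subunit of prolyl 4-hydroxylase, had 187 and 181 CPM in SCR and 199 and 181 CPM in siTLN1, a log2 fold change of 0.045 with a 95% interval of −0.15 to 0.24.

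**Figure D3:**
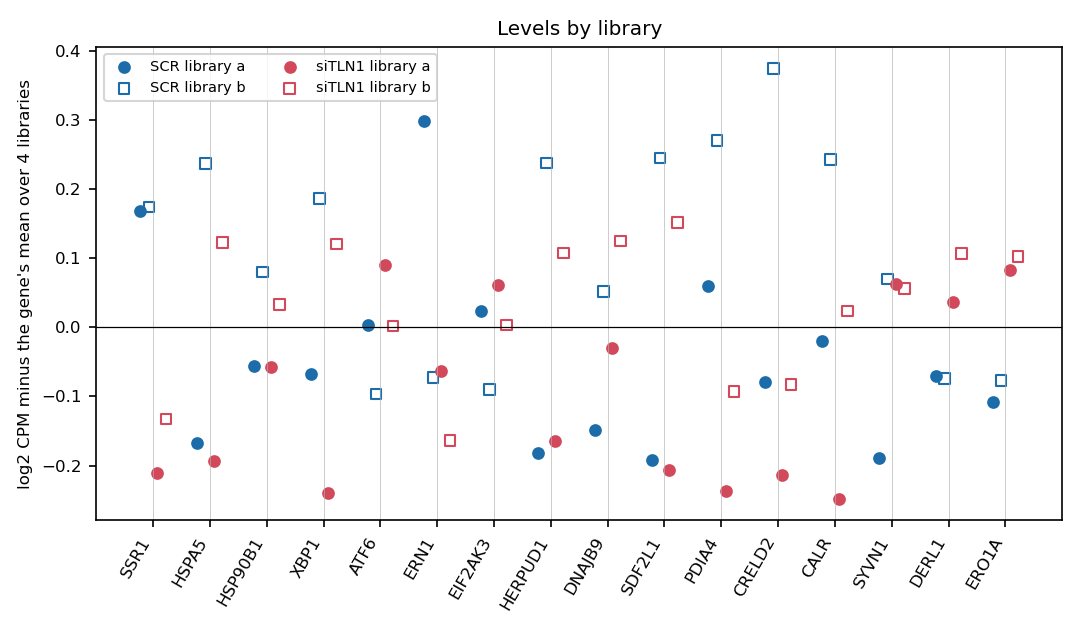
Log2 CPM of 16 of the genes in each library, minus the gene's mean over the 4 libraries. SSR1 and ERO1A separate by group (red against blue), while HSPA5, XBP1, HERPUD1 and SDF2L1 separate by library (open squares above filled circles in both groups).

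Most of the 35 differed more between the SCR libraries than between the groups. In SCR the log2 ratio of library b to library a exceeded the size of the fold change between groups in 27 of the 35, against 3950 of the 8244 tested genes at or above the lowest mean of the 35 (14.5 CPM). In siTLN1 this held for 19 of the 35, against 3711 of the 8244, a share nearer to that of the other genes. Library b exceeded library a by at least 0.25 on the log2 scale in both groups in 7 genes, against 88 of those 8244 genes (1.07%). The 7 were HSPA5, HERPUD1, SDF2L1, MANF, DNAJB11, CALR and XBP1. None of the 35 was lower in library b by that size in both groups, against 3.58% of the 8244. The size was chosen after the values were seen, and no test was made of this split. For HSPA5 the log2 ratio of b to a was 0.40 in SCR and 0.32 in siTLN1. It was 0.42 and 0.27 for HERPUD1, 0.44 and 0.36 for SDF2L1 and 0.32 and 0.41 for MANF. The sensors went the other way, with −0.10 and −0.088 for ATF6, −0.11 and −0.059 for EIF2AK3 and −0.37 and −0.10 for ERN1. Across the 35 genes the ratios in SCR and siTLN1 had a Pearson r of 0.76, against 0.60 across the 8244. These are correlations across genes, which share libraries and are not independent.

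Of the 9 genes with a promoter match printed above, library b stood above library a for 8 in SCR and 7 in siTLN1. The 9 genes with a match had a median log2 ratio of b to a of 0.26 in SCR and 0.27 in siTLN1, and 5 of the 9 were among the 7 genes. The 23 genes without a match had medians of 0.099 and 0.016, and 2 of them, MANF and DNAJB11, were among the 7. CANX, with a match, went the other way at −0.081 and −0.076. Outside the 35, 11 other tested genes with an ERSE or ERSE-II match at that level had medians of −0.00089 and 0.076, and none of them reached 0.25 in both groups. Between siTLN1 and SCR the 9 genes with a match had a median log2 fold change of −0.065, against −0.076 for the 23 without. Both groups held 1 library a and 1 library b. Within the a libraries the median log2 ratio of siTLN1 to SCR over the 35 genes was −0.014, and within the b libraries it was −0.085. For SSR1 the ratio was −0.38 and −0.31, and for PDIA4 −0.30 and −0.36. For HSPA5 it was −0.026 and −0.11.

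**Figure D4:**
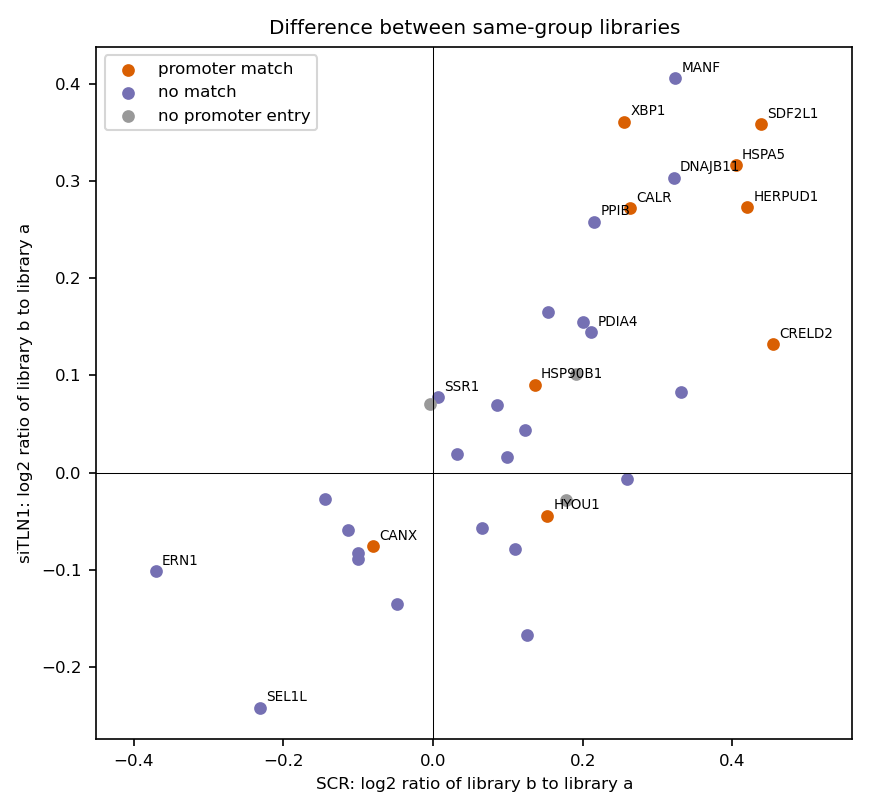
For each of the 35 genes, the log2 ratio of library b to library a in SCR (horizontal) and in siTLN1 (vertical), coloured by whether the promoter window holds an ERSE, ERSE-II or UPRE match. HSPA5, HERPUD1, SDF2L1, XBP1 and CALR (orange) and MANF and DNAJB11 (purple) lie in the upper right, and ERN1 and SEL1L in the lower left.

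The second comparison placed the 35 genes beside 134 other genes of the same compartment in 7 lists. Of these, 132 were tested and 13 changed (9.85%, against 6.07% of all genes). Of the 13, 12 fell and 1 rose (3.77% and 2.30% of all genes). Leaving out siTLN1 library a reduced the 13 to 4, which were P4HA1, CREB3L2, DNAJB12 and TRIB3, and it reduced the count over all genes from 980 to 324. Leaving out each of the other 3 libraries gave 10 to 12.

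Of the 7 lists, the one with most changes was that of other collagen-modifying and retrieval genes. There 5 of 15 fell (33.3%, against 3.77% of all genes), and the median was −0.14. P4HA1 (chromosome 10, 73007217 to 73096974, minus strand), the main catalytic subunit of collagen prolyl 4-hydroxylase and thus the counterpart of P4HA2, had 126 and 129 CPM in SCR and 45.5 and 64.5 CPM in siTLN1. It fell by 1.21 on the log2 scale (standard error 0.14, adjusted p 0.000275 by edgeR), and by 0.98 when siTLN1 library a was left out. P3H1 and P3H2, which hydroxylate proline at another position, fell by 0.46 and 0.41 on the log2 scale, COLGALT1, which adds galactose to hydroxylysine, by 0.35, and KDELR3, a receptor that retrieves escaped chaperones, by 0.55. P3H2 and COLGALT1 were named after their values were seen. The COLGALT1 call was lost when any 1 library was left out and without a filter on low counts, and the P3H2 call when either siTLN1 library was left out. Without siTLN1 library a P3H1 had an adjusted p of 0.0826 and KDELR3 one of 0.131. PLOD2 (−0.084) and CRTAP (−0.083) did not pass.

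Of 21 partners of the response and genes of the PERK and ATF4 branch, 3 fell (14.3%, against 3.77% of all genes). The median of the 21 was −0.12. CREB3L2, a membrane-bound transcription factor related to ATF6, had 316 and 285 CPM in SCR and 172 and 171 CPM in siTLN1. It fell by 0.81 on the log2 scale, and its adjusted p was 6.55e-05 by edgeR. TRIB3, a target of ATF4 and DDIT3, fell by 0.78 and CREBRF, a regulator of CREB3, by 0.40, both on the log2 scale. The call on CREBRF was lost with DESeq2 (adjusted p 0.0877), without a filter on low counts (0.102) and when SCR library a (0.196), siTLN1 library a (0.248) or siTLN1 library b (0.200) was left out. ATF4 itself had 300.4 and 350 CPM in SCR and 267 and 315 CPM in siTLN1, and DDIT3 (CHOP) had 21.2 and 24.7 CPM against 18.0 and 20.5 CPM. Their log2 fold changes of −0.16 and −0.25 did not pass (adjusted p 0.457 and 0.236, edgeR).

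The other 5 lists held 5 calls, at 0% to 11.1% of the tested genes of a list, against 6.07% of all genes. DNAJB12, a membrane-bound J protein, had 45.9 and 49.2 CPM in SCR and 24.6 and 24.0 CPM in siTLN1. It fell by 0.97 on the log2 scale (adjusted p 1.75e-05, edgeR). SELENOM, a thioredoxin-like selenoprotein, fell by 0.60 on the log2 scale. In glycan addition and glycoprotein quality control, MLEC (malectin) fell by 0.42 and OST4, a subunit of the oligosaccharyltransferase, by 0.36. In degradation MARCHF6, a ubiquitin ligase, rose by 0.44. The OST4 call was lost without a filter on low counts (adjusted p 0.125) and on leaving out SCR library b (0.131), and that on MARCHF6 on leaving out SCR library b (0.0536). On leaving out siTLN1 library a the adjusted p was 0.505 for OST4, 0.317 for MARCHF6, 0.178 for MLEC and 0.0972 for SELENOM, and none of the 4 passed. Of 22 other translocation genes none passed by edgeR's adjusted p, with 1 at an unadjusted p under 0.05.

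**Figure D5:**
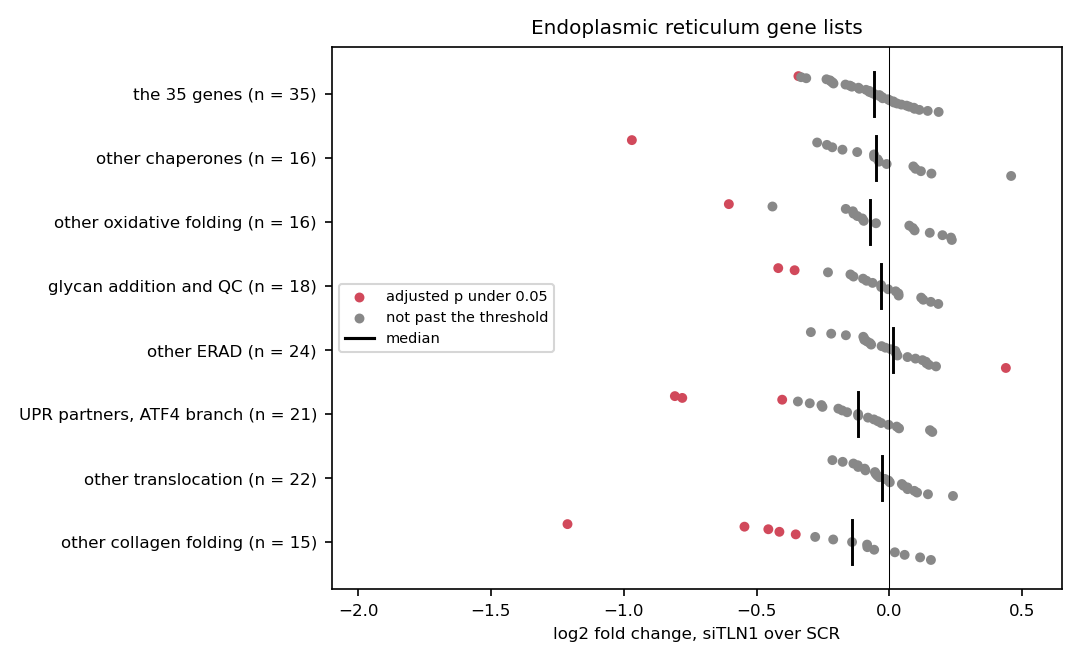
Log2 fold change of siTLN1 over SCR for the 35 genes and for 7 lists of other genes of the compartment, with a bar at each median and genes with an adjusted p under 0.05 in red. The red points include 1 of 35 in the first row and 5 of 15 in the row labelled other collagen folding. That row also holds the retrieval receptor KDELR3, which is 1 of the 5, and in it P4HA1 stands apart at −1.21.

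The word GACAACA in the 3′ UTR was chosen with earlier results of these data known and is used only to describe. It occurred in the 3′ UTR of 7.36% of tested protein-coding genes (GENCODE 29, 1 transcript per gene), of which 18.8% changed, against 6.09% of genes without it. Of the 35 genes, ERN1 and DERL2 held it in that transcript, and neither passed. HSP90B1, HYOU1 and SYVN1 held it in another transcript, and SSR1 in none of its 8. Over all changed protein-coding genes, 159 of 178 with the word fell, against 406 of 727 without it. In the other lists 11 tested genes held it and 5 of these changed (45.5%), against 8 of 121 without it (6.61%). The 5 were P4HA1, COLGALT1, CREBRF and CREB3L2, which fell, and MARCHF6, which rose. Its part in these changes was not tested. The sites are shown with 10 bases on each side and the word in capitals.
ERN1: atttgttttgGACAACAcccttgacca
DERL2: aactttgtcaGACAACAtgaaaaaaaa
P4HA1: aatgtgttgtGACAACAatgacctatt
COLGALT1: gctgtgtgcaGACAACAtccccccacc
CREBRF: acttccaccaGACAACAaaatagatta
CREB3L2, site 1: gccctgttctGACAACAgacatttcag
CREB3L2, site 2: tgttattttgGACAACAtaaaattcag
MARCHF6: atttctagaaGACAACAaggaaaacgt

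Counting did not use strand, so where exons overlap on the 2 strands their reads could not be separated. More than 10% of exon bases lay in an exon of an opposite-strand gene for 7 of the 35. They were PPIB (27.2%), PDIA6 (25.2%), PDIA3 (18.9%), DNAJB11 (15.3%), EIF2AK3 (14.3%), HSP90B1 (13.9%) and P4HB (10.1%), and in the other lists DDIT3 (31.6%), OST4 (25.2%) and MLEC (14.1%). The share of their reads that fell there was not measured, so their counts are uncertain. For SSR1 the share was 1.33%. An exact permutation test of a single gene cannot go below p = 0.333 with 2 libraries a group, so all p-values come from the model fitted across genes.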

How the data were processed

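Raw counts per gene were deposited by the authors, made with featureCounts (Subread 2.0.0) in paired mode with no strand option on GENCODE 33, per the file headers. Alignment with STAR 2.7.9a is named in the submitters' processing notes. Exon lengths are in another column of the deposited counts, in a unit other than counts. A second deposited table holds log2 CPM; sorted within each group, 100% of its values differed by less than 1e-06 from log2 CPM computed here with TMM.

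Count columns name their group only and were mapped to groups. Genes kept by filterByExpr (minimum count 10, minimum total count 15) were fitted with edgeR 4.0.16 (R 4.3.3): TMM, estimateDisp, glmQLFit (robust, not the legacy method), glmQLFTest, Benjamini-Hochberg over 16137 genes, threshold 0.05. TPM was computed from counts and exon length over the tested genes. Alternatives used RLE scaling, total counts, no filter, DESeq2 1.42.0, limma-trend (limma 3.58.1) on the deposited log2 CPM with and without a replicate block, and each library left out. Symbols came from a table of gene identifiers, and 16085 tested genes had one. Sequences came from RefSeq and GENCODE 29, read with Python 3.11.15 and pandas 2.3.3.

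The 35 genes and the other lists were chosen with earlier results of these data known. Values are given for every called member, for 9 sensors and markers of the response, for the 3 largest rises and 3 largest falls among the rest, for called genes of the other lists (at most 3 per list and direction), and for ATF4 and DDIT3; SEC61B, P4HA2 and other members given by library were added after their values were seen. The series describes the libraries of a group as biological replicates, without saying whether they came from separate cultures. The p-values rest on a spread between these libraries estimated across genes, and not on the libraries of each gene alone. Whether that spread covers separate cultures is not known. The procedure was tested on simulated data, with the libraries drawn independently. No difference between libraries a and b shared by the groups was put in, so the simulation does not cover one.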

Additional observations from a re-analysis of the deposited data

How the results depend on the processing

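Of the 35 genes, 1 was called by edgeR. The count was 2 with total counts only, 2 with DESeq2 and 0 without a filter on low counts, where 5 had an unadjusted p under 0.05 and more genes were tested. It ran from 0 to 2 when 1 library was left out, with 1 to 7 at an unadjusted p under 0.05. In those fits the lone library of a group is assumed to vary like the other group. The count over all genes then ran from 324 to 1100 and that of the other lists from 4 to 12. The median of the 35 ran from −0.090 (SCR library a left out) to 0.044 (SCR library b left out), and was 0.0035 with siTLN1 library a left out. With SCR library b left out, the log2 fold change turned to 0.14 for HSPA5, 0.045 for HSP90B1, 0.021 for XBP1, 0.16 for HERPUD1 and 0.18 for SDF2L1. With siTLN1 library a left out it was 0.076, 0.022, 0.058, 0.066 and 0.11 for the same genes. These genes stood higher in library b than in library a in both groups, and such fits leave the letters uneven between the groups. Within libraries a and then b the log2 ratio of siTLN1 to SCR was −0.026 and −0.11 for HSPA5 and −0.0018 and −0.047 for HSP90B1. It was −0.17 and −0.066 for XBP1, 0.017 and −0.13 for HERPUD1 and −0.014 and −0.093 for SDF2L1. The part of this in the turned signs was not tested. With SCR library a left out, DNAJB9 turned to −0.0013 and SYVN1 to −0.011. None of these passed the threshold in the fit of all 4 libraries. The labels number the libraries alike in both groups without saying what a number marks. The difference between replicates 1 and 2 in SCR correlated with that in siTLN1 at 0.19 across all 16137 genes. The difference between libraries b and a in SCR correlated with that in siTLN1 at 0.60 across the 8244 more abundant genes. Replicate numbers were not matched to the letters, and the gene sets differ. These values therefore do not compare different pairings. With the replicate number as a block, limma-trend called 3645 of all genes, 9 of the 35 (SSR1, PDIA4, CRELD2, P4HB, DNAJB11, CALR, SEC61B and PLOD1 lower, and ERO1A higher) and 36 of the other lists. The cause of these differences was not tested.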
